A study of Mesocricetus auratus with 8 samples.

Results

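The transcripts of the cyclin D, CDK4/6 and CDK inhibitor circuit were followed in primary Syrian hamster satellite cells (SCs), from which adult muscle fibers are repaired, before and after cold exposure. The genes were taken by symbol from the deposited expression table and comprised 3 D-type cyclins (Ccnd1, Ccnd2 and Ccnd3), 2 kinases (Cdk4 and Cdk6), their substrate Rb1, 3 inhibitors of the CIP/KIP family (Cdkn1a, Cdkn1b and Cdkn1c) and 1 inhibitor of the INK4 family (Cdkn2c), making 10 of the 17590 genes with values among 31581 entries. All 10 passed the filter on low counts, which left 12506 genes tested, with between 645 and 18379 expected counts each per library. SCs were isolated from the hindlimb muscle of wild-type male Slc:Syrian hamsters aged 8 to 16 weeks, enriched by preplating and grown on Matrigel in serum-rich growth medium (GM). All cells received 48 h at 37°C in GM and then 24 h at 37°C in GM with 100 mM HEPES, after which 4 control libraries were made at once and 4 cold libraries were made after a further 24 h at 4°C. Replicates are numbered 1 to 4 in each group and were called biological replicates in the study, and how many animals stand behind each number was not given in the sources used here, so p-values measure the spread between these libraries. By their treatment annotation, control replicates 1, 2, 3 and 4 had spent 3, 4, 5 and 6 days in culture at 37°C, while the sample titles place all of them on day 3. Cold libraries were collected 24 h after the controls and no library kept at 37°C for those 24 h was analysed here, so cold and elapsed time cannot be told apart in any difference given.

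D-type cyclins are made in response to growth factors and activate CDK4 and CDK6, which phosphorylate the retinoblastoma protein RB and release E2F transcription factors to drive entry into S phase. INK4 proteins bind CDK4 and CDK6 directly and keep cyclin D out, whereas CIP/KIP proteins bind cyclin and CDK complexes, inhibiting those of CDK2 and also helping cyclin D and CDK4 to assemble. In myoblasts, the proliferating progeny of SCs, cyclin D1 opposes MyoD, and withdrawal from the cell cycle at the onset of differentiation goes with higher p21 (Cdkn1a), p57 (Cdkn1c) and RB.

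Libraries held 16530747 to 18533801 expected counts. The first principal component, with 54.5% of the variance, set the libraries numbered 1 and 2 against those numbered 3 and 4 whatever their temperature, and the second, with 17.9%, parted cold from control, so values are given below by replicate and for each pair of equal number. Of the markers that define the labelled cells, Myod1 lay between 463 and 693 TPM (transcript abundance corrected for gene length and scaled within each library) in control libraries and Pax7 between 10.8 and 15.8 TPM. The 9 SC and myoblast markers summed to 2220 to 2620 TPM in control and 2120 to 2459 TPM in cold libraries. The 10 markers of differentiating myocytes were also abundant, at 2032 to 4268 TPM in control and 1052 to 1875 TPM in cold libraries. Of the markers of other cells, 7 fibroblast genes summed to 1217 to 1739 TPM in control and 1201 to 1687 TPM in cold libraries, 5 macrophage and leukocyte genes to 25.98 to 54.3 and 26.5 to 55.7 TPM (nearly all Cd68, with Ptprc at 0.03 TPM at most), and 4 endothelial genes to 1.96 to 3.87 and 2.01 to 3.63 TPM. The 3 Schwann cell and 3 adipocyte genes stayed at or under 2.77 and 1.08 TPM in sum, and the 4 pericyte and smooth muscle genes, nearly all Acta2, gave 1155 to 1981 TPM in control and 990.1 to 1288 TPM in cold libraries. Apart from Acta2, Cspg4 lay between 25.9 and 29.9 TPM, with Myh11 at 2.9 TPM and Rgs5 at 0.54 TPM at most. No marker was listed at 0 in all 8 libraries.

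Cdkn1c, Rb1 and Cdkn1a, whose products restrain the cell cycle, were lower after cold exposure in every pair and without overlap between the groups, at 56.1%, 74.0% and 77.1% of the control mean. The cyclins, the kinases and the inhibitors Cdkn1b and Cdkn2c kept within 10% of their control means, and their groups overlapped. Over all genes tested, 2.41% had cold libraries that lay wholly below the controls, against 3 of the 10 genes here, and 2.27% had cold libraries wholly above, against 0 of the 10. A lower TPM in 4 of 4 pairs was found for 4 of the 10 genes, against 10.5% of all genes tested, and a higher TPM in 4 of 4 pairs for 3 of the 10, against 12.8%. The median log2 fold change of the 10 genes was −0.02, beside 0.01 over all genes tested.

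Whether these differences passed a test varied with the tool and, in edgeR, with the use of the replicate numbers. With 4 cold against 4 control libraries and no pairing, edgeR's quasi-likelihood test called 0 of the 10 genes at an adjusted p under 0.05, where it called 0.072% of all genes tested lower (9 genes) and 0% higher. At an unadjusted p under 0.05, the same test had 3 of the 10 lower (Rb1, Cdkn1a and Cdkn1c) and 0 higher, against 4.13% and 2.57% of all genes tested. DESeq2 called 2 of the 10 lower (Rb1 and Cdkn1c), against 0.924% of the genes it tested, and limma on log2 TPM called 0 of the 10 in either direction, against 0.0218%. With the replicate number as a block, which compares each cold library with the control of its own number, edgeR called 3 of the 10 lower (Rb1, Cdkn1a and Cdkn1c), against 4.07% of all genes tested, and 1 higher (Cdk6), against 1.26%. Under the block, DESeq2 called Rb1 and Cdkn1c lower, against 2.37% of the genes it tested, and limma called 0, against 0.21%. The study's rule, which also asks that the log2 fold change reach 1 in size, was met by none of the 10 genes in the edgeR fits to all 8 libraries with or without the block, and by 0.04% of all genes tested without it and 0.808% in the lower direction with it.

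**Figure D1:**
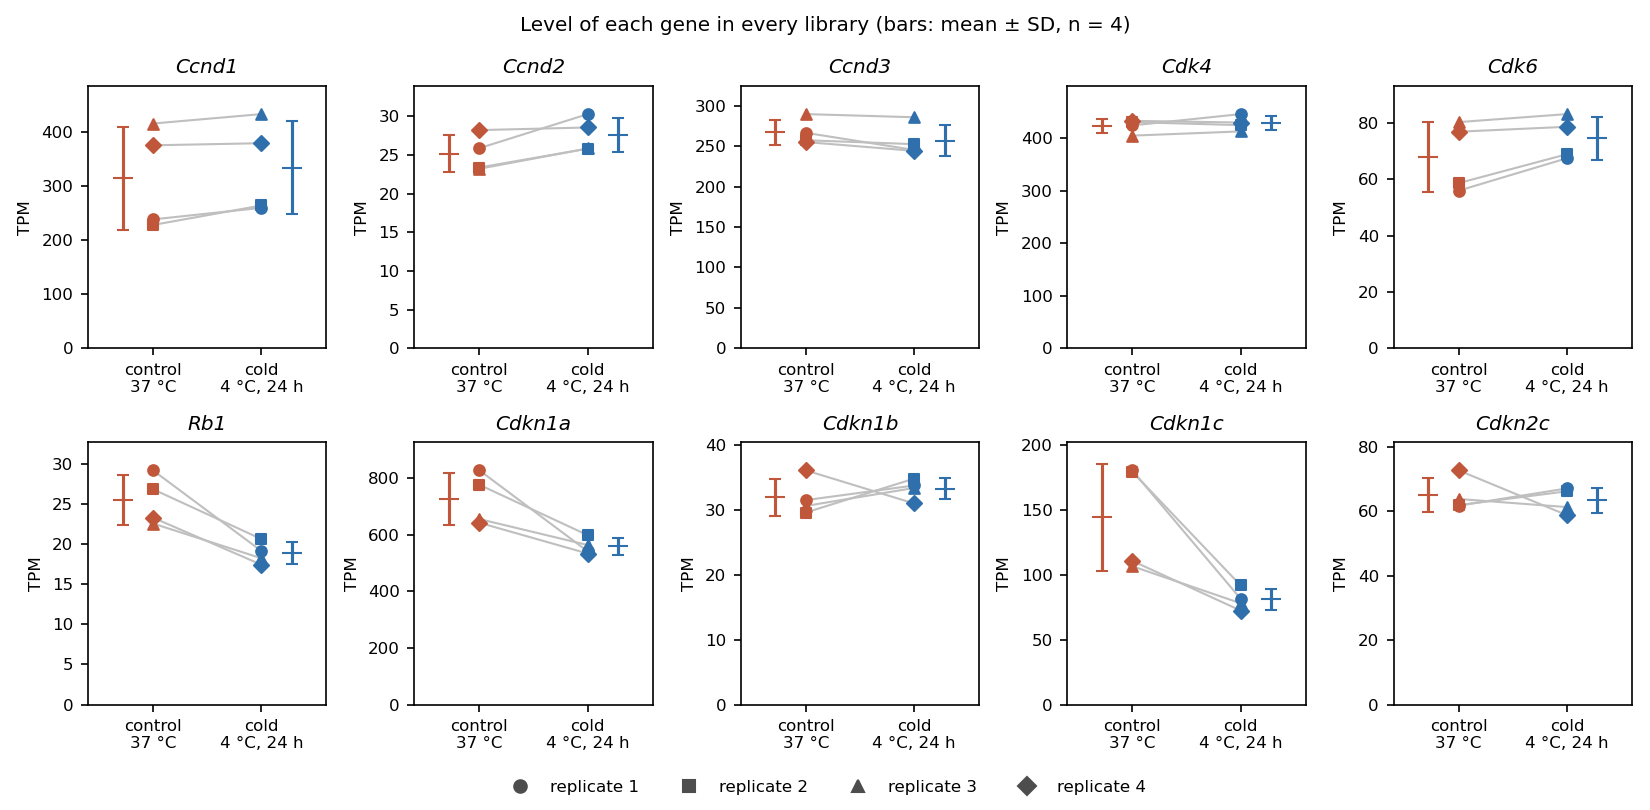
TPM of each of the 10 genes in control (37°C) and cold (4°C, 24 h) libraries, with 1 panel per gene, symbols for replicate numbers, grey lines joining libraries of equal number and bars for mean ± SD (n = 4). Cdkn1c, Rb1 and Cdkn1a lie lower in all 4 cold libraries than in any control, and Ccnd1 and Cdk6 split by replicate number in both groups.

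Ccnd1 (Gene ID 101837554) encodes cyclin D1, the D-type cyclin most tied to mitogen signals in myoblasts. Its level was 239, 229, 417 and 376 TPM in control replicates 1 to 4 and 260.3, 265, 434 and 380.1 TPM in cold replicates 1 to 4. The libraries fell into a low pair, replicates 1 and 2, and a high pair, replicates 3 and 4, in both groups alike, and the groups overlapped. Replicates 3 and 4 held 1.70 times the Ccnd1 of replicates 1 and 2 in control and 1.55 times in cold. Against that spread, the means of 315 ± 95.4 (control) and 335 ± 86.4 TPM (cold, SD, n = 4) differed by a log2 fold change of 0.08 (95% interval −0.40 to 0.56, adjusted p = 0.999). All 4 pairs were higher in cold, by 0.12, 0.21, 0.06 and 0.01 on the log2 scale of TPM, and the fit with the block gave 0.08 (SE 0.033, 95% interval 0.014 to 0.154) with an adjusted p of 0.174.

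Ccnd2 (Gene ID 101835885), which encodes cyclin D2, was by far the least abundant of the D-type cyclins. It measured 25.9, 23.4, 23.2 and 28.2 TPM in control and 30.3, 25.8, 25.85 and 28.6 TPM in cold replicates. Each cold library stood above the control of its number, but control replicate 4 exceeded 2 of the cold libraries. The log2 fold change was 0.12 (95% interval −0.06 to 0.30, adjusted p = 0.950), and in the fit with the block 0.12 with an adjusted p of 0.129.

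Ccnd3 (Gene ID 101829610) encodes cyclin D3, known to rise and persist in differentiating myotubes. Controls gave 266.5, 257, 289.7 and 255 TPM, and cold libraries gave 245, 252, 286 and 244 TPM. Every pair was lower in cold, by at most 0.12 on the log2 scale of TPM, within a narrow and overlapping range. The log2 fold change was −0.06 (95% interval −0.21 to 0.09, adjusted p = 0.999, and 0.463 with the block). Replicates 1 and 2 fitted alone, with 2 libraries per group, gave −0.14 (adjusted p = 0.0394), and replicates 3 and 4 alone gave 0.0049 (adjusted p = 0.9995).

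Cdk4 (Gene ID 101839492) was the steadiest of the 10 genes. Control replicates 1 to 4 held 424, 430.5, 405 and 433 TPM, and cold replicates held 446, 425, 413 and 429.7 TPM. Cold was higher in 2 pairs and lower in 2, and the log2 fold change of 0.003 had a 95% interval of −0.12 to 0.13 (adjusted p = 0.999), so a difference of more than 0.13 in either direction lay outside the interval.

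Cdk6 (Gene ID 101823943), the second cyclin D kinase, read 55.9, 58.6, 80.3 and 76.85 TPM in control replicates and 67.4, 68.9, 83.1 and 78.6 TPM after cold exposure. Like Ccnd1, it was low in replicates 1 and 2 and high in replicates 3 and 4 in both groups, by 1.37 times in control and 1.19 times in cold. The groups overlapped, with means of 67.9 ± 12.4 and 74.5 ± 7.58 TPM (SD, n = 4) and a log2 fold change of 0.12 (95% interval −0.11 to 0.35, adjusted p = 0.999). All 4 pairs were higher in cold, by 0.27, 0.23, 0.05 and 0.03 on the log2 scale of TPM. The fit with the block passed the threshold narrowly, at 0.13 (SE 0.036, adjusted p = 0.0492), and missed it when both libraries numbered 1 (0.09, adjusted p = 0.344), 2 (0.10, adjusted p = 0.365) or 3 (0.15, adjusted p = 0.0615) were left out. The expected counts of Cdk6 were not whole numbers in 7 of 8 libraries, which means that some of its reads were divided between genes, so its level is uncertain to that extent.

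**Figure D2:**
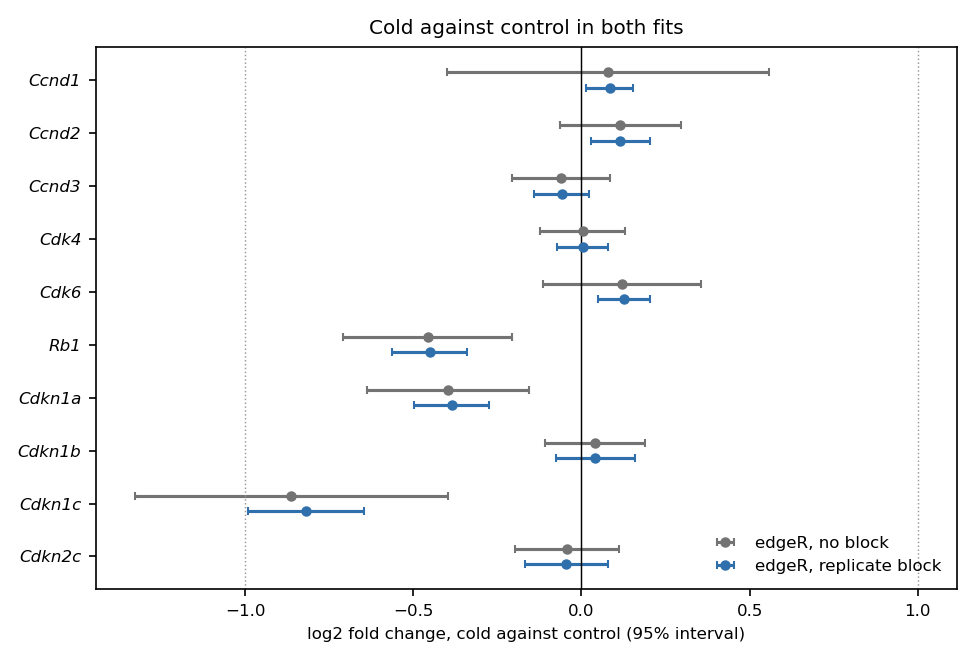
Log2 fold changes (cold over control) of the 10 genes from edgeR with 95% intervals, without (grey) and with (blue) the replicate number as a block, and dotted lines at a log2 fold change of −1 and 1. The intervals of Cdkn1c, Rb1 and Cdkn1a lie below 0 in both fits, and the intervals of Ccnd1, Ccnd2 and Cdk6 clear 0 with the block only.

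Rb1 (Gene ID 101831842) encodes RB, the substrate of CDK4 and CDK6, which is needed for lasting exit from the cell cycle in muscle. Its level was 29.2, 26.8, 22.5 and 23.3 TPM in control replicates 1 to 4 and 19.1, 20.6, 18.2 and 17.4 TPM in cold replicates. Every control library exceeded every cold library, and the gap was narrowest between control replicate 3 and cold replicate 2. The means were 25.4 ± 3.10 and 18.8 ± 1.37 TPM (SD, n = 4 per group, exact two-sided permutation p = 0.0286, which no arrangement of 4 against 4 libraries can undercut). Any gene whose groups do not overlap gives this p-value, so it restates the lack of overlap. The log2 fold change was −0.46 (SE 0.112, 95% interval −0.71 to −0.21, adjusted p = 0.267), with the block −0.45 (SE 0.053, adjusted p = 1.01e-05), and in DESeq2 −0.46 (adjusted p = 0.0302). Pairs 1 to 4 differed by −0.61, −0.38, −0.31 and −0.42 on the log2 scale of TPM. In the fit with the block, 385 of the 12506 genes tested had a lower log2 fold change.

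Cdkn1a (Gene ID 101826412), which encodes p21 and is a target of both p53 and MyoD, was the most abundant of the 10 genes in either group. It stood at 829, 778, 656 and 643 TPM in control and at 542, 599, 564 and 534 TPM in cold replicates. The groups did not overlap, and controls 1 and 2 lay above controls 3 and 4 while the cold libraries lay close together. Means were 726 ± 91.15 and 559.9 ± 29.1 TPM (SD, n = 4 per group, exact two-sided permutation p = 0.0286). The log2 fold change was −0.40 (SE 0.107, 95% interval −0.64 to −0.16, adjusted p = 0.331), and −0.39 with the block (SE 0.053, adjusted p = 6.92e-05). DESeq2 did not call it, with an adjusted p of 0.0639 without and 0.0631 with the block. By pair the difference was −0.61, −0.38, −0.22 and −0.27 on the log2 scale of TPM, and 477 of the 12506 genes tested had a lower log2 fold change in the fit with the block.

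Cdkn1c (Gene ID 101843982) encodes p57, which accumulates as myoblasts leave the cell cycle, and showed the widest difference of the 10 genes. Controls read 181, 179.8, 107 and 111 TPM, and cold libraries read 81.7, 92.0, 78.2 and 72.5 TPM. All cold libraries lay below all controls, and the controls themselves split, with replicates 3 and 4 at 0.604 times the level of replicates 1 and 2, against 0.868 times in cold. The mean went from 144.5 ± 41.3 to 81.1 ± 8.18 TPM (SD, n = 4 per group, exact two-sided permutation p = 0.0286). The log2 fold change was −0.86 (SE 0.207, 95% interval −1.33 to −0.40, adjusted p = 0.252), with the block −0.82 (SE 0.082, adjusted p = 1.38e-06), and in DESeq2 −0.86 (adjusted p = 0.0045). Pairs 1 to 4 gave −1.15, −0.97, −0.45 and −0.61 on the log2 scale of TPM. Of the 12506 genes tested, 159 had a lower log2 fold change in the fit with the block.

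Cdkn1b (Gene ID 101844027), the gene of p27, a protein controlled mainly by its turnover, did not share the lower level of its relatives. Control replicates held 31.5, 29.55, 30.6 and 36.0 TPM and cold replicates 33.7, 34.8, 33.3 and 30.9 TPM. Cold exceeded control in pairs 1, 2 and 3 and fell short of it in pair 4, within overlapping ranges. The log2 fold change was 0.04 (95% interval −0.11 to 0.19, adjusted p = 0.999, and 0.764 with the block).

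Cdkn2c (Gene ID 101828904) encodes p18, an INK4 protein that binds CDK4 and CDK6. It read 61.8, 62.0, 63.9 and 72.8 TPM in control and 67.2, 66.3, 61.4 and 58.9 TPM in cold replicates. Pairs 1 and 2 were higher in cold and pairs 3 and 4 lower, and the log2 fold change was −0.04 (95% interval −0.20 to 0.11, adjusted p = 0.999, with an adjusted p of 0.75 under the block).

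Fits within each side of the first principal component, with 2 libraries per group, gave negative log2 fold changes for the 3 lower genes. This sign followed from their groups not overlapping, so its agreement between the sides adds no evidence. The libraries numbered 1 and 2 alone gave a log2 fold change of −1.11 for Cdkn1c (adjusted p = 2.1e-11, which meets the study's rule, as did 1.41% of all genes tested in the lower direction), −0.56 for Rb1 (adjusted p = 1.42e-06) and −0.55 for Cdkn1a (adjusted p = 5.63e-08). Replicates 3 and 4 alone gave −0.52 for Cdkn1c (adjusted p = 0.0112), −0.35 for Rb1 (adjusted p = 0.0818) and −0.23 for Cdkn1a (adjusted p = 0.301). Of all genes tested in these fits, 6.85% and 0.381% were called lower. The estimates were larger in size on the first side, and the difference between the sides was not tested. Counts of replicates 1 and 2 differed little, with a chi-square per gene of 2.46 in control and 2.78 in cold libraries. It was 6.99 and 4.78 between replicates 3 and 4, and 18.9 to 27.0 between the sides. The p-values of these fits therefore measure the spread between libraries that were close to each other. For Cdk6, replicates 1 and 2 alone gave 0.19 (adjusted p = 0.00436) and replicates 3 and 4 alone gave 0.06 (adjusted p = 0.997).

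The 10 markers of differentiating myocytes moved with these 3 genes. Summed, they gave 4268, 4187, 2032 and 2359 TPM in control replicates 1 to 4 and 1563, 1875, 1134 and 1052 TPM in cold replicates, so that controls 1 and 2 were the highest libraries here as they were for Rb1, Cdkn1a and Cdkn1c. All 10 had negative log2 fold changes in both fits, with a median of −1.47 without the block. In edgeR all 10 were called lower with the block, against 4.07% of all genes tested, and 1 was without it, against 0.072%. DESeq2 without the block called all but Myog, Ckm and Tnnc1 lower, against 0.924% of the genes it tested. With the block, limma called only Mymk, Ckm, Tnnt1 and Myl4 of this list, against 0.21% of the genes it tested. Some genes of other lists were also called lower with the block, where 4.07% of all genes tested were. Of the 9 SC and myoblast markers, the fit with the block called 3 lower, namely Cdh15 (log2 fold change −0.32, adjusted p = 1.19e-05), Itga7 (−0.29, adjusted p = 1.14e-05) and Myod1 (−0.13, adjusted p = 0.01997), and of the 4 pericyte and smooth muscle markers it called Acta2 lower (−0.46, adjusted p = 2.68e-05). The median of the 9 SC and myoblast markers was −0.04 with the block, and Pax7 (0.08), Myf5 (0.08) and Sdc4 (0.04) had positive log2 fold changes that were not called. Cdh15, Itga7, Myod1 and Acta2 were not called without the block, and the genes of these lists are named after their values were seen. With the block, DESeq2 called each of them lower and limma called none (adjusted p = 0.124, 0.117, 0.394 and 0.214 in limma). Rb1 and Cdkn1c put all 8 libraries in the same order as the summed markers, and are among the 20 of 12506 genes tested (0.16%) that did so, of which 3 were markers of the list. Cdkn1a matched the marker rank in 4 of 8 libraries and Ccnd1 in 2. This comparison of orders was chosen after the values had been seen, and it is given as a description over 8 libraries that share their depth and their replicate structure. The part of the cells behind any of these markers in the lower levels of Rb1, Cdkn1a and Cdkn1c was not tested, and in bulk RNA fewer cells of a type and less RNA per cell cannot be told apart.

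**Figure D3:**
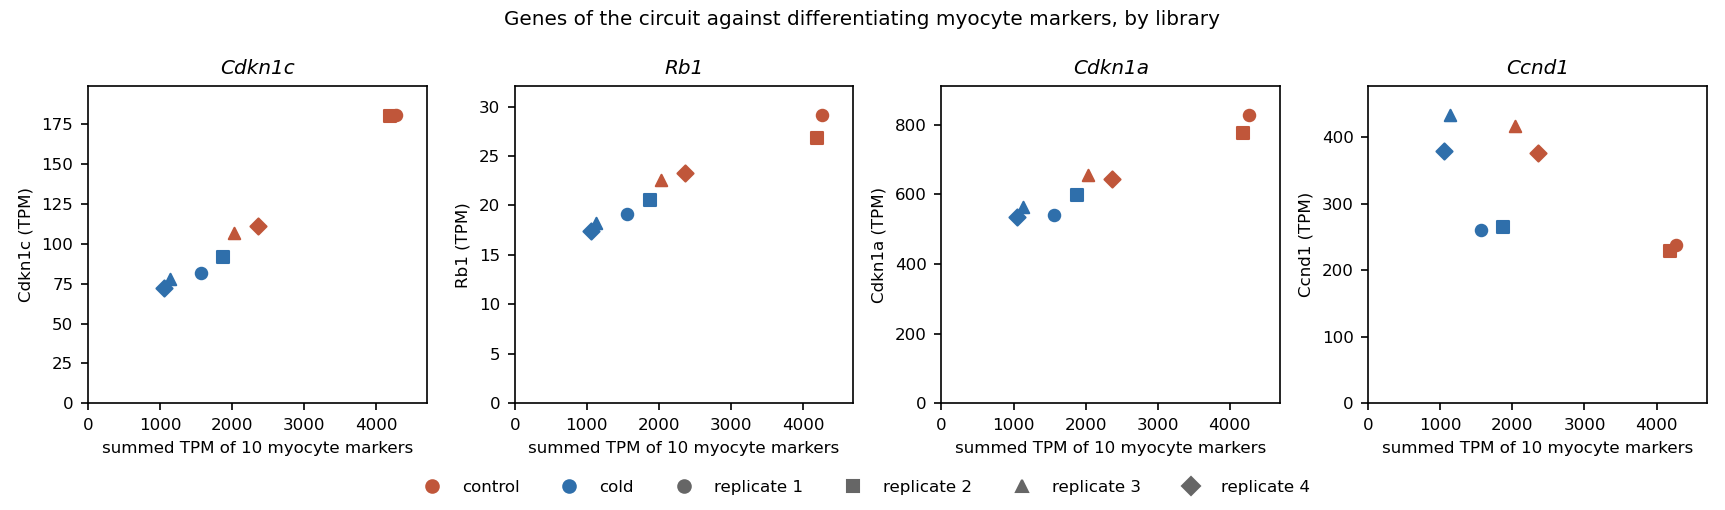
TPM of Cdkn1c, Rb1, Cdkn1a and Ccnd1 (y axes) against the summed TPM of 10 markers of differentiating myocytes (x axis) in the 8 libraries, colored by group and with symbols for replicate numbers. Control replicates 1 and 2 hold the most marker TPM, at 4268 and 4187, and the highest Rb1, Cdkn1a and Cdkn1c.

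When the genes were added up by role, the inhibitor sum separated the groups and the cyclin and kinase sums did not. The inhibitor sum is mostly Cdkn1a and repeats the lower levels of Cdkn1a and Cdkn1c. Cdkn1b and Cdkn2c stood at 104.0% and 97.4% of their control means, with overlapping groups. Cdkn2a, at a mean of 54.2 TPM in control and 58.0 TPM in cold, is not among the 10 genes and was left out. The 4 inhibitors summed to 1103, 1049, 857 and 863 TPM in control and 724, 792, 737 and 696.5 TPM in cold replicates, without overlap. D-type cyclins summed to 607 ± 105 TPM in control and 619 ± 99.8 TPM in cold, and kinases to 491 ± 13.0 and 503 ± 9.503 TPM (SD, n = 4). The ratio of summed D-type cyclins to summed inhibitors was 0.482, 0.486, 0.851 and 0.764 in control and 0.740, 0.685, 1.01 and 0.937 in cold replicates. It was higher in cold in 4 of 4 pairs, but controls 3 and 4 exceeded cold replicates 1 and 2, so the groups overlapped. The ratio compares transcript levels per length and says nothing of protein.

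**Figure D4:**
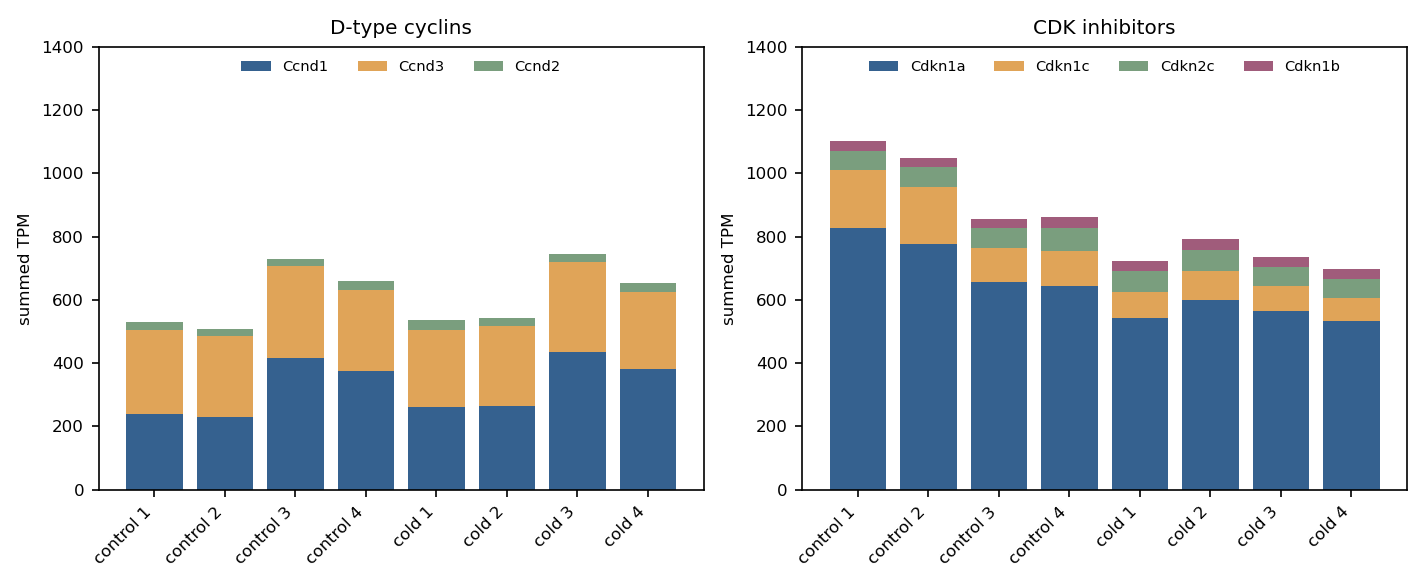
Summed TPM of the D-type cyclins (left) and the CDK inhibitors (right) in each of the 8 libraries, with each gene's contribution stacked. Cdkn1a makes up most of the inhibitor sum, which runs from 857 to 1103 TPM in control and from 696.5 to 792 TPM in cold libraries.

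The make-up of each role showed which genes carried these sums. Ccnd1 gave 44.96% and 44.9% of D-type cyclin TPM in control replicates 1 and 2, where Ccnd3 was slightly ahead, and 57.1% and 57.0% in replicates 3 and 4. In cold replicates 1 to 4 Ccnd1 gave 48.6%, 48.7%, 58.2% and 58.2%, higher than the control of its number in each pair. Cdk4 supplied 86.2 ± 2.39% of kinase TPM in control and 85.2 ± 1.61% in cold (SD, n = 4). Among the inhibitors, Cdkn1a held 75.1 ± 1.05% in control and 75.9 ± 0.881% in cold, while Cdkn1c went from 14.7 ± 2.40% to 10.98 ± 0.562% and Cdkn1b from 3.35 ± 0.648% to 4.50 ± 0.115%. The shares of Cdkn1c and Cdkn1b did not overlap between the groups, whereas the TPM of Cdkn1b did. Shares were not tested.

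Ordered by TPM in control, the circuit ran from Cdkn1a (726) through Cdk4 (423), Ccnd1 (315), Ccnd3 (267), Cdkn1c (144.5), Cdk6 (67.9), Cdkn2c (65.1), Cdkn1b (31.9) and Rb1 (25.4) to Ccnd2 (25.2). Cdk4 and Ccnd1, Ccnd1 and Ccnd3, Cdk6 and Cdkn2c, and Rb1 and Ccnd2 had overlapping control ranges and are not ordered beyond their spread. The order of the means was the same in cold except that Ccnd2 stood above Rb1.

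Genes with the nearest profiles were sought for Ccnd1, Cdkn1a and Cdkn1c by the root mean square difference of centred log2 CPM over the 8 libraries, among 10486 genes. Nearest to Ccnd1 were Ntn4 (netrin-4, 0.0468), Cep170b (a centrosomal protein, 0.0529) and Ptprf (a receptor tyrosine phosphatase, 0.0553), against a median of 0.342 over all genes. Ntn4 shared the split by replicate number, with 46.0, 46.9, 81.6 and 74.5 TPM in control and 49.1, 48.3, 83.6 and 74.3 TPM in cold replicates. Nearest to Cdkn1a were Spg21 (0.0491), Rb1 itself (0.0511) and Gdpd1 (0.0548), against a median of 0.276. Nearest to Cdkn1c were 2 genes of the thin filament, Tpm2 (beta-tropomyosin, 0.0561) and Tnnc2 (fast skeletal troponin C, 0.0709), with the actin-binding Ablim3 (0.059) between them, against a median of 0.524. Tpm2 read 379, 406, 254 and 259 TPM in control and 186, 208, 177 and 160.1 TPM in cold replicates, so it too was highest in controls 1 and 2.

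Beyond the 10 genes, 62 of 63 listed genes of the surrounding pathway were tested, and Perp was not matched. The fit without the block called 0 of the 62, with 0 lower and 3 higher at an unadjusted p under 0.05, against 4.13% and 2.57% of all genes tested. DESeq2 and limma called 0 without and with the block. In edgeR with the block 1 was called lower, Btg2, and 0 higher, against 4.07% and 1.26% of all genes tested. The median log2 fold change of the 62 genes was 0.01 without the block, as over all genes tested. With the block, the count was 0 without the libraries numbered 1 or those numbered 2, 2 without those numbered 3 and 7 without those numbered 4, where 3.14%, 2.84%, 4.6% and 7.44% of all genes tested were called in either direction. Replicates 1 and 2 alone called 2 of the 62 lower and 8 higher, against 6.85% and 4.73% of all genes tested, and replicates 3 and 4 alone called 0 in either direction, against 0.381% and 0.0159%.

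**Figure D5:**
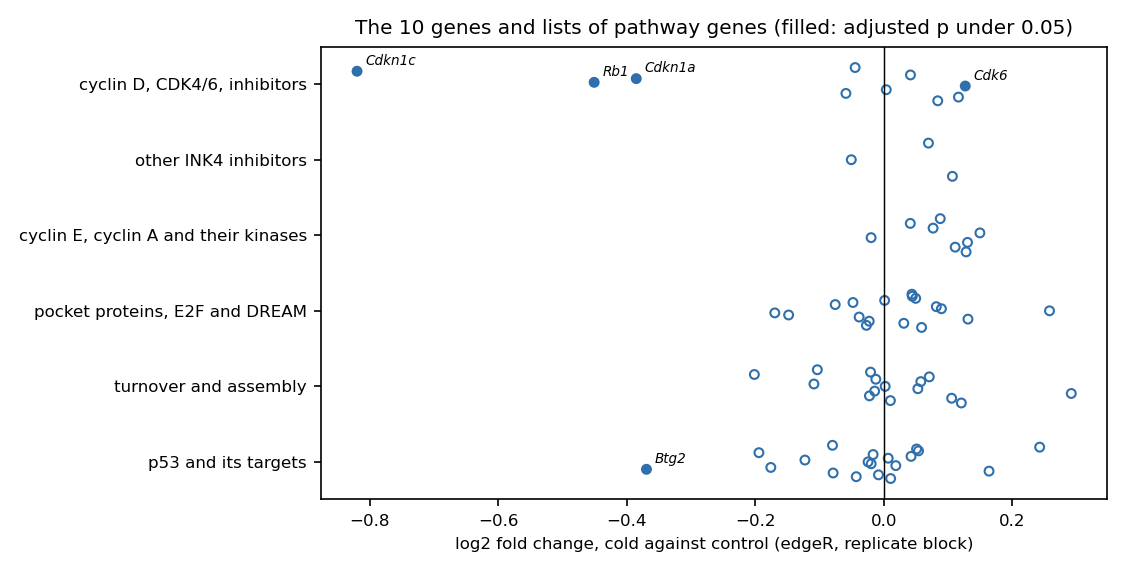
Log2 fold changes (cold over control, edgeR with the replicate block) of the 10 genes and of the genes of each pathway list, 1 point per gene, filled where the adjusted p was under 0.05. Cdkn1c, Rb1 and Cdkn1a lie below every pathway gene, and the medians of the pathway lists run from −0.02 to 0.10.

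The 3 other INK4 inhibitors had 0 calls in either fit. The most abundant, Cdkn2a, measured 54.2 ± 9.54 TPM in control and 58.0 ± 6.97 TPM in cold (SD, n = 4; log2 fold change 0.10, adjusted p = 0.999). Of the 8 genes of cyclin E, cyclin A and their kinases, which act after CDK4 and CDK6 in G1 and S phase, 7 had a positive log2 fold change and 0 were called in the fits to all 8 libraries. Replicates 1 and 2 alone called 3 of them higher, against 4.73% of all genes tested, namely Ccna2, Ccne1 (0.21, adjusted p = 0.00786) and Cdc25a (0.25, adjusted p = 0.00469), and replicates 3 and 4 alone gave 0.03 for both Ccne1 and Cdc25a (adjusted p = 0.997). Their most abundant member, Ccna2, which encodes cyclin A2, read 141, 134, 149 and 157 TPM in control and 164, 163, 164 and 153 TPM in cold replicates. It was higher in pairs 1, 2 and 3 and lower in pair 4, with a log2 fold change of 0.13 (SE 0.046, adjusted p = 0.576) and an adjusted p of 0.0681 with the block. Without both libraries numbered 4, the fit with the block gave 0.17 (adjusted p = 0.00695), and without those numbered 1, 2 or 3 it gave 0.11, 0.09 and 0.12 (adjusted p = 0.246, 0.472 and 0.195). The fit to replicates 1 and 2 alone gave 0.18 (adjusted p = 0.00731) and that to replicates 3 and 4 alone 0.06 (adjusted p = 0.997).

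The 17 genes of pocket proteins, E2F factors and the DREAM complex, which repress or activate the genes downstream of RB, had 0 calls in the fits to all 8 libraries and a median log2 fold change of 0.03. Replicates 1 and 2 alone called 3 of them higher, against 4.73% of all genes tested, namely E2f7 (0.46, adjusted p = 0.000907), E2f3 (0.27, adjusted p = 0.00379) and E2f8 (0.17, adjusted p = 0.0463), for which replicates 3 and 4 alone gave 0.04, −0.03 and 0.00066. The 3 E2f genes, like Ccne1 and Cdc25a, are named after their values were seen, and the difference between the sides was not tested. Their most abundant member, the histone-binding Rbbp4, averaged 357 ± 47.8 TPM before and 370.1 ± 17.8 TPM after cold exposure (SD, n = 4; log2 fold change 0.04, adjusted p = 0.999). The 15 genes of turnover and assembly, among them the SCF ubiquitin ligase that degrades p27, had 0 calls in the fits to all 8 libraries and a median of 0.0016. Replicates 1 and 2 alone called 2 of them higher, against 4.73% of all genes tested, namely Cul1 (0.14, adjusted p = 0.0463) and Dtl (0.21, adjusted p = 0.0372), for which replicates 3 and 4 alone gave 0.06 and −0.10, and these 2 too were picked out by their values. Skp1, its adaptor, had 320.3 ± 13.4 and 318.5 ± 3.09 TPM (log2 fold change −0.02, adjusted p = 0.999), with reads divided between genes in all 8 libraries. Among p53 and its targets, a group to which Cdkn1a also belongs, 19 genes were tested and 0 were called without the block in all 8 libraries. Replicates 1 and 2 alone called 2 lower, against 6.85% of all genes tested, namely Btg2 (−0.53, adjusted p = 0.00267) and Tp53inp1 (−0.29, adjusted p = 0.0244, also picked out by its value), for which replicates 3 and 4 alone gave −0.19 and −0.12. With the block, Btg2, an antiproliferative gene, was the 1 call in edgeR, and DESeq2 and limma with the block did not call it (adjusted p = 0.174 and 0.323). Its TPM was 12.8, 12.45, 9.67 and 8.24 in control and 8.05, 10.2, 8.49 and 7.10 in cold replicates. All 4 pairs were lower while the groups overlapped (n = 4 per group, exact two-sided permutation p = 0.171), with a log2 fold change of −0.38 (adjusted p = 0.802) and −0.37 with the block (SE 0.090, adjusted p = 0.0185). The call was lost without the libraries numbered 1 (−0.25, adjusted p = 0.194) or 2 (−0.39, adjusted p = 0.0763).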

How the data were processed

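RNA was extracted from 8 samples of hamster SCs and sequenced by BGI as paired reads of 150 bases from poly(A) libraries. The submitters' processing notes name HISAT and HISAT2. The counting program and the genome build were not given in the sources used here. The authors deposited expected counts, which are not normalized, TPM values scaled within each library, and normalized counts, a further signal that the authors had scaled and that was not used for tests. After rounding, expected counts were fitted in edgeR 4.0.16 (R 4.3.3; filterByExpr, TMM, quasi-likelihood F test), and Benjamini-Hochberg adjustment was made over the 12506 genes tested. Standard errors are the absolute log2 fold change over the square root of F. Adjusted p-values are from this fit unless another tool is named. TPM of single genes was compared by an exact two-sided permutation test over 70 arrangements. The arrangements exchange libraries freely and ignore the replicate numbers, so this test does not use the pairing. Among the members with overlapping groups, the same test gave p-values from 0.171 (Ccnd2) to 0.657 (Ccnd1). Alternatives were DESeq2 1.42.0, limma 3.58.1 on log2(TPM + 0.1), with pseudocounts of 0.01 and 1 also tried, other normalizations and filters, the replicate block and libraries left out. Scripts were tested on simulated data, and Python 3.11.15 with matplotlib 3.10.9 drew the figures.

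The groups share replicate numbers in the titles. The deviations from the group means correlated across genes at 0.61, 0.62, 0.65 and 0.66 for libraries of equal number 1 to 4. They correlated at 0.57 and 0.59 for 1 with 2, at 0.47 and 0.43 for 3 with 4, and at −0.61 to −0.55 across these pairs of numbers. The numbers were taken to pair the libraries, although between 1 and 2 the equal numbers stood out only slightly. The fits with the block rest on this pairing. The study's methods name no test or block for these libraries, and the unblocked fit was taken as the main one. Reads carry no molecular identifiers.

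The genes and lists were chosen with earlier results of these data known. All 10 genes are named. In each list of pathway genes, every gene called in either fit is named, up to 4, and otherwise the most abundant, and for Ccnd1, Cdkn1a and Cdkn1c the 3 nearest profiles among genes with a symbol and a mean of at least 1 TPM.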

Additional observations from a re-analysis of the deposited data

Results flagged for a closer look

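In cold libraries, Ccna2 read 164, 163, 164 and 152.94 TPM in replicates 1 to 4, and replicate 4 lay apart from the other 3 by 0.918 of the group's range, above Dixon's 95% critical value for 4 samples. Of 30 groups examined in this way, 1.5 would be flagged by chance.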

How the results depend on the processing

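Over 25 alternatives, the log2 fold changes of Rb1 (−0.56 to −0.35), Cdkn1a (−0.55 to −0.23) and Cdkn1c (−1.11 to −0.52) stayed negative, with 8, 6 and 9 calls, and those of Ccnd2 and Cdk6 stayed positive. For Rb1, Cdkn1a and Cdkn1c, whose groups did not overlap, leaving libraries out could not turn the sign. The count of the 10 genes called, 0 in the unblocked edgeR fit, was 4 with the replicate block (beside 4.07% of all genes lower and 1.26% higher). It was 2 in DESeq2 (beside 0.924% lower) and 2 in DESeq2 with the replicate block (beside 2.37% lower). With the block and without number 1, 2, 3 or 4 in both groups it was 3, 3, 3 and 4 (beside 3.14%, 2.84%, 4.6% and 7.44% of all genes tested), it was 5 in replicates 1 and 2 only (beside 6.85% of all genes lower and 4.73% higher) and 1 in replicates 3 and 4 only (beside 0.381% and 0.0159%), and it stayed at 0 with each single library left out. Pathway genes called, 0 unblocked, were 1 with the replicate block, 2 and 7 with the block and without number 3 or 4, and 10 (2 lower, 8 higher) in replicates 1 and 2 only. The shares of all genes called in these fits are those just given. The cold minus control difference in the ratio of cyclins to inhibitors, 0.198 from TPM, was 0.379 from CPM, which is not corrected for length.

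Signs turned among values near 0. With single libraries left out, Ccnd1 ranged from −0.0638 to 0.223, Cdk4 from −0.0359 to 0.0273, Cdkn2a from −0.0021 to 0.209 and Rbbp4 from −0.0068 to 0.106. Cdk4 was also −1.9e-05 with RLE factors, −0.0036 with no filter beyond 1 count, −0.011, −0.0078 and −0.0022 with the block and without number 1, 3 or 4, and −0.0227 in replicates 1 and 2 only. Replicates 3 and 4 only gave 0.0049 for Ccnd3, −0.0388 for Cdkn1b and −0.0164 for Rbbp4. Cdkn1b was −0.0136 with the block and without number 2. Cdkn2c was 0.0285 with the block and without number 4, and 0.0543 in replicates 1 and 2 only. The cause of these changes was not tested. With 4 libraries a group, the exact permutation test cannot go below 0.0286.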
